A study of Mus musculus with 10 samples.

Results

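The genes described here encode titin and proteins of the Z-disc, the M-band and the thin filament in the sarcomere, the contractile unit of striated muscle. They are titin (Ttn), nebulin (Neb), the myomesins Myom1 and Myom2 of the M-band, the Z-disc genes Myoz1, Myoz3, Actn2, Ldb3 and Tcap, and tropomodulin 1 (Tmod1). The 10 genes were chosen by symbol, from 21098 genes in the table. Earlier results of these data were known at the choice, so no test was run over the list as a whole. RNA was sequenced in bulk from the gastrocnemius (GAS) of wild-type male C57BL/6J mice with diet-induced obesity (DIO), which received a high-fat diet from 9 weeks of age and were injected after 9 weeks on it. The ASO group (5 libraries) received the anti-miR-22 antisense oligonucleotide RES-010 under the skin at 10 mg/kg once a week for 14 weeks, and the CTRL group (5 libraries) received matched volumes of saline. All mice were 30 weeks old per the labels, although the weeks given for diet and treatment add up to more than that, both groups were obese, and lean mice and a control oligonucleotide were not analysed here. The labels number 1 mouse per library, and the p-values measure the spread between these libraries.

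In the sarcomere, actin filaments are anchored at the Z-disc by alpha-actinin, and myosin filaments are tied together at the M-band by myomesins. Titin runs from the Z-disc to the M-band as a spring and a ruler, and telethonin, the product of Tcap, caps its N-terminal end at the Z-disc. Nebulin lies along the actin filament, and tropomodulin closes its pointed end. The calsarcins or myozenins (Myoz1, Myoz3) bind alpha-actinin and calcineurin at the Z-disc, and Ldb3, known as ZASP or Cypher, binds alpha-actinin through its PDZ domain. In mouse GAS, a mostly fast muscle, Myoz1 and Myom2 are known as genes of fast fibers.

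The oligonucleotide is directed at miR-22, whose mature 3p strand is shown because its seed (bases 2 to 8, in capitals) sets which transcripts it can pair with. The sequence is from RefSeq.
mmu-miR-22-3p: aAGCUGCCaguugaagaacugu
The heptamer that pairs with this seed, GGCAGCT, was sought on the sense strand, in the longest 3′UTR that the annotation gives a gene. It was found in 1 of the 10 genes, Myoz1, and in 16.73% of 20968 coding genes and 21.72% of the 7781 of them that were tested. The match begins 301 bases after the stop codon of the transcript Myoz1-208, at chr14:20699139-20699145 on the minus strand (GRCm39), and is shown with its neighboring bases, the heptamer in capitals.
Myoz1 match: tggtgtgtgaaggcaGGCAGCTg
It lies beyond the counted end of Myoz1, which belongs to the shorter transcript Myoz1-201 with a 3′UTR of 271 bases. No match says only that these letters are not in the window searched. The Ttn counts lie on another 3′UTR, that of Ttn-202 (233 bp), and some Ldb3 counts on that of Ldb3-203 (513 bp). Neither was searched.

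What the table counts decides what can be said of each gene. It holds read pairs on the last stretch of 3′UTRs as the authors defined them, at most 500 bp per transcript, and where segments have identical coordinates neither received a count (11480 segments, 0 counts in all). By the annotation used here, some segments end short of the transcript end. The distance is 737 bp in Myoz3, 2939 bp in 1 segment of Ldb3 and 3009 bp in the Actn2 segment that held counts. Of the 10 genes, 7 passed the filter on low counts and were tested among 7813 genes. Neb held 6 counts over all 10 libraries, Actn2 held 11 and Myom1 held 1, with at most 3 in any library, so that alpha-actinin 2, nebulin and myomesin 1 cannot be compared here. Their annotated ends lie on top of each other: of the segment that held the counts, 15 of 500 bp in Neb, 9 of 68 bp in Actn2 and 1 of 487 bp in Myom1 were not shared with another segment. A count of 3, taken as the floor, corresponds to 1.25 to 1.77 CPM (counts scaled to the size of the library) in these libraries and covers counting error only.

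Gene-matched totals were 1606491 to 2116297 counts in CTRL and 2238864 to 2632214 in ASO libraries, so every ASO library was deeper than every CTRL library. Drawn down to 1606491 counts each, the libraries gave the same number of higher genes among the 10, namely 4. A further 2 values moved with the groups. The summed level of 8 skeletal muscle fiber markers was 44064 to 83277 CPM in CTRL and 88632 to 136623 CPM in ASO libraries, with Ckm and Atp2a1 past the threshold, Mb, Mylpf and Tnnt3 at 0 counts and Des at 35 counts in all. The counts of upstream against distal 3′UTR segments also differed over 1570 genes: the median log2 ratio of the most distal segment to segments at least 1000 bp upstream was between -0.57 and 0.43 in CTRL and between 1.17 and 1.70 in ASO libraries. CTRL replicate 3 held the most adipocyte RNA (13744 CPM over 7 markers, against 720.6 to 3758 in the other 9 libraries) and the most macrophage RNA (1414 CPM, against 70.7 to 542). ASO replicate 4 held the most Schwann cell RNA (470.1 CPM, against 29.9 to 129.95). Summed ranges overlapped for macrophage, fibroblast, endothelial, blood, tendon and smooth muscle markers as well, with Mrc1 and Lum lower and Acta2 higher. In bulk RNA, a smaller share of a cell type and less RNA per cell cannot be told apart, and the part of these values in the results below was not tested.

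In the GAS of ASO-treated mice, counts at a short-form end of titin and those of Myom2, Myoz1 and Tmod1 rose, at adjusted p-values of edgeR's quasi-likelihood test below the threshold of 0.05. The changes were 2.65-fold for Ttn, 2.17-fold for Myom2, 1.81-fold for Myoz1 and 1.44-fold for Tmod1. None of the 7 tested genes passed the threshold in the lower direction, although Ldb3 had an unadjusted p under 0.05 in that direction. Myoz3, Ldb3 and Tcap did not pass in either direction. Over all genes tested, 11.8% were higher and 17.4% were lower (920 and 1363 of 7813). The log2 fold change (ASO over CTRL) was above 0 in 6 of the 7 genes, with a median of 0.52 beside -0.03 over all genes tested.

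**Figure D1:**
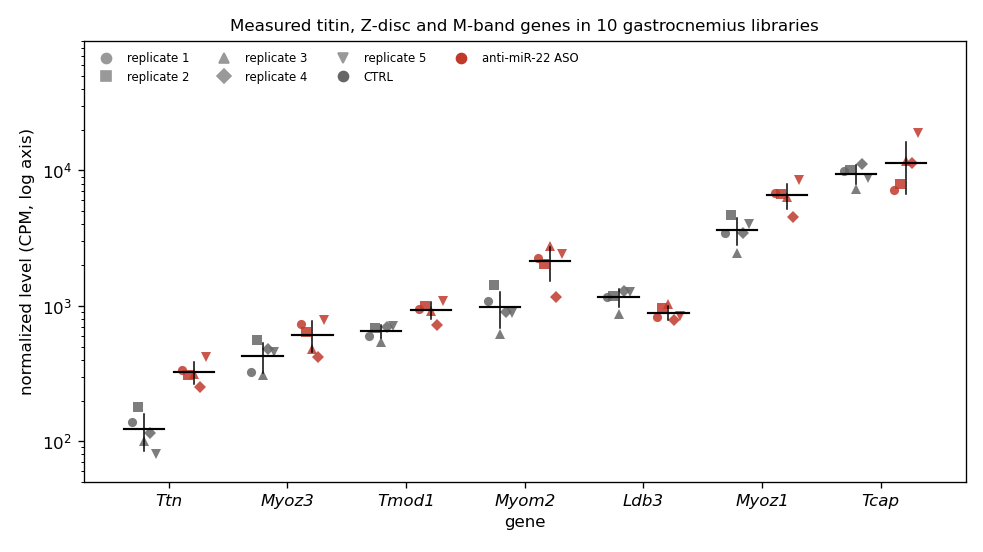
Normalized level (CPM, logarithmic axis) of the 7 measured genes in each of 10 libraries, CTRL in gray and ASO in red, with marker shapes for the replicate number. Horizontal lines are means and vertical lines are ± 1 SD (n = 5). Ttn and Tmod1 do not overlap between the groups, and ASO replicate 4 is the lowest ASO library in 6 of the 7 genes.

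Titin stood first among them. The CTRL libraries 1 to 5 held 139.6, 178, 100.3, 116 and 80.9 CPM of Ttn. The ASO libraries 1 to 5 held 336, 308, 313, 251.7 and 423 CPM. The groups did not overlap, with the lowest ASO library above the highest CTRL library, a pattern that 7.97% of all genes tested showed and that 2 of these 7 genes showed (Ttn and Tmod1). Mean levels were 123 ± 37.4 CPM in CTRL and 326 ± 62.1 CPM in ASO (SD, n = 5), from 144 to 381 and 603 to 896 counts per library. The log2 fold change was 1.41 (SE 0.21, 95% interval 0.94 to 1.87) with an adjusted p of 0.000718 in edgeR. The two-sided exact permutation test gave p = 0.00794, the smallest that 5 against 5 libraries can give.

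These counts lay at the 3′ end of a short form of titin, far from the end of the full-length transcripts. All 4879 Ttn counts lay on 1 segment, chr2:76744288-76744520 on the minus strand (GRCm39), the whole 233-bp 3′UTR of Ttn-202. This transcript has 45 exons and 5508 codons, and its last exon is the alternative end known as novex-3, which carries Z-disc and I-band parts of titin and no A-band or M-band part. The segment is exonic in 1 of 20 coding Ttn transcripts and intronic in 4 others, so unspliced RNA of the longer forms would be counted there too, and the 2 sources cannot be told apart. It lies 209964 bp upstream of the full-length end. Ttn-201 (26938 codons) and Ttn-203 (347 exons, 35390 codons) share 1 segment at chr2:76534324-76534823 with identical coordinates, and held 0 counts. All 3 transcripts start at the same base, 76812799. A change in full-length titin RNA was not measurable in this table.

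Myom2, the myomesin of fast fibers at the M-band, was counted on its own 500-bp end at chr8:15183042-15183541 (plus strand, 3′UTR), of which no base was shared. CTRL libraries held 1080.0, 1418, 621, 905 and 879 CPM, and ASO libraries held 2266, 2030.0, 2778, 1171 and 2409 CPM. Of the ASO libraries, 4 stood above every CTRL library, and ASO replicate 4 stood below CTRL replicate 2. Mean levels were 980.4 ± 294 CPM in CTRL and 2131 ± 601 CPM in ASO (SD, n = 5). The log2 fold change was 1.12 (SE 0.25, 95% interval 0.57 to 1.67) with an adjusted p of 0.00626 in edgeR, and the exact permutation test gave p = 0.0159. Its paralog Myom3, named here after its values were seen, varied between mice more than between groups, with 64.8 to 227 CPM in CTRL and 13.0 to 564 CPM in ASO libraries (adjusted p of 0.48 in edgeR).

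Myoz1 and Myoz3 are paralogs that encode Z-disc calsarcins. Myoz1 was counted at chr14:20699175-20699445 (minus strand, 271 bp, the full 3′UTR of Myoz1-201, a transcript of 296 codons). CTRL libraries held 3450.3, 4698, 2453, 3471 and 4027 CPM, and ASO libraries held 6855, 6654, 6326, 4551 and 8442 CPM. Only ASO replicate 4 fell within the CTRL range, below CTRL replicate 2. Mean levels were 3619.9 ± 828 CPM and 6566 ± 1390.1 CPM (SD, n = 5), with a log2 fold change of 0.86 (SE 0.21, 95% interval 0.41 to 1.31), an adjusted p of 0.009 in edgeR and an exact permutation p of 0.0159.

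Myoz3 was counted at chr18:60706822-60707321 (minus strand, 500 bp of a 3337-bp 3′UTR, 245 codons). CTRL libraries held 324, 559, 306, 482 and 460.1 CPM, and ASO libraries held 736, 638, 478, 422 and 789.9 CPM. ASO replicates 3 and 4 lay within the CTRL range and the other 3 above it. Mean levels were 426 ± 108 CPM and 613 ± 159.6 CPM (SD, n = 5), and the log2 fold change of 0.52 (SE 0.22, 95% interval 0.05 to 1.00) did not pass after adjustment (adjusted p of 0.0906 in edgeR, exact permutation p of 0.0794). Without ASO replicate 4 it was 0.662 with an adjusted p of 0.0356. The third calsarcin, Myoz2, a slow-fiber gene named here after its values were seen, ranged from 61.2 to 583 CPM in CTRL and from 34.3 to 1174 CPM in ASO libraries, with an adjusted p of 0.559 in edgeR.

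Tcap, whose product caps titin at the Z-disc, overlapped between the groups. It was counted at chr11:98275372-98275779 (plus strand, 408 bp, the full 3′UTR of its 1 coding transcript, 167 codons). CTRL libraries held 9944, 10103, 7289, 11062 and 8729 CPM. ASO libraries held 7120.4, 7921, 11689, 11341 and 18983 CPM. ASO replicate 1 was the lowest of all 10 libraries and ASO replicate 5 the highest. The coefficient of variation was 41.1% in ASO and 15.4% in CTRL libraries. Mean levels were 9425 ± 1454 CPM and 11411 ± 4691 CPM (SD, n = 5), and the log2 fold change was 0.28 (SE 0.26, 95% interval -0.28 to 0.83; adjusted p of 0.442 in edgeR, exact permutation p of 0.508). Without ASO replicate 5 it was 0.0265.

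Tmod1, which caps the pointed end of the actin filament, showed the smallest change that passed. CTRL libraries held 598, 688, 544, 703 and 710.0 CPM, and ASO libraries held 943, 996, 919.9, 726 and 1079.9 CPM. Every ASO library was above every CTRL library, ASO replicate 4 by the least. Mean levels were 649 ± 74.2 CPM in CTRL and 933 ± 131 CPM in ASO (SD, n = 5). The log2 fold change was 0.52 (SE 0.14, 95% interval 0.21 to 0.84), with an adjusted p of 0.0164 in edgeR and an exact permutation p of 0.00794. This call rests on the scaling: with libraries scaled by total counts, which moved the median of all genes by -0.18, the value was 0.338 with an adjusted p of 0.0511. The segment of Tmod1 (chr4:46115533-46116032, plus strand) overlaps by 301 bp a segment of Tstd2 on the opposite strand, and 199 of its 500 bp are not shared.

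**Figure D2:**
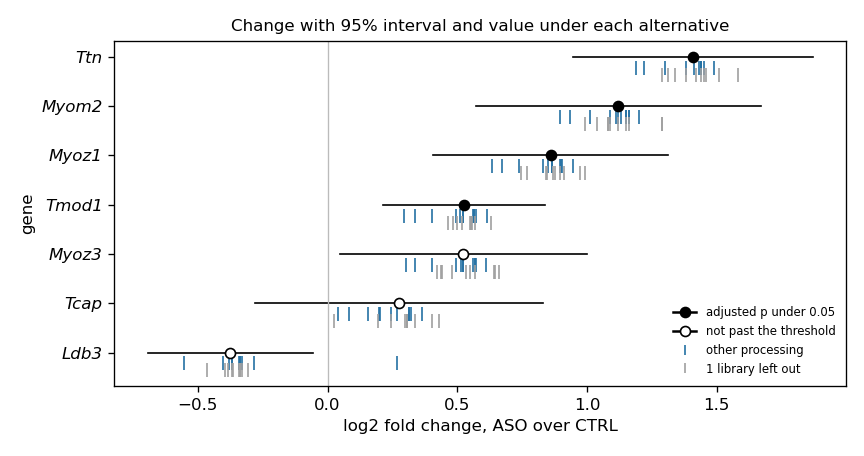
Log2 fold change (ASO over CTRL, horizontal axis) of the 7 measured genes, with the 95% interval of the edgeR fit as a line, filled for an adjusted p under 0.05. Blue ticks are values under other processing and gray ticks values with 1 library left out. Ticks of Ttn lie between 1.19 and 1.58, and those of Ldb3 lie on both sides of 0.

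Ldb3 went against the others when its counts were summed. CTRL libraries held 1166, 1181, 866, 1280.5 and 1273 CPM, and ASO libraries held 834, 957, 1031, 783 and 844 CPM. Apart from CTRL replicate 3, every CTRL library was above every ASO library. Mean levels were 1153 ± 169 CPM in CTRL and 889.7 ± 101 CPM in ASO (SD, n = 5), and the log2 fold change of -0.37 (SE 0.15, 95% interval -0.69 to -0.06) had an adjusted p of 0.0726 in edgeR and an exact permutation p of 0.0238. Without CTRL replicate 3 it was -0.464 with an adjusted p of 0.022.

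The sum covers 3 ends with 5184 to 10487 counts each and a 4th, more distal segment with 12 counts in all, which is not described further. The 3 ends were examined one by one after their values were seen, in a fit of 10652 segments in which 24.7% were lower and 16.0% higher. The short form Ldb3-203 (327 codons), which ends before the LIM domains, is counted at chr14:34283229-34283728. This end had 302, 297, 183, 280.3 and 306 CPM in CTRL and 245, 279.6, 183, 195 and 212 CPM in ASO libraries. These ranges overlapped almost throughout, and the log2 fold change of the short end was -0.26 (SE 0.17, adjusted p of 0.254 in edgeR). Only 11 of the 500 bp of this end are not shared with another segment of Ldb3. The segment is exonic in 20 of 37 coding Ldb3 transcripts and intronic in 17. Unspliced RNA of those 17 would be counted there too, and the sources cannot be told apart.

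The long forms, which carry the LIM domains, share a 3361-bp 3′UTR counted mainly in 2 places. The part next to the stop codon (chr14:34250995-34251416) had 354, 345, 375, 607 and 589.8 CPM in CTRL and 122, 142, 94.7, 88.9 and 114 CPM in ASO libraries. Every ASO library was lower, with 454 ± 132 and 112 ± 21.5 CPM (SD, n = 5) and a log2 fold change of -1.98 (SE 0.22, adjusted p of 4.53e-05 in edgeR). The distal part (chr14:34248682-34249181) had 509, 538, 307, 394 and 376 CPM in CTRL and 467, 534, 752, 498 and 517 CPM in ASO libraries. It overlapped between the groups, with a log2 fold change of 0.43 (SE 0.19, adjusted p of 0.0914 in edgeR).

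The ratio of distal to stop-proximal counts within this 3′UTR was 0.637 to 1.56 in CTRL and 3.76 to 7.94 in ASO libraries. The stop-proximal part made up 39.3% ± 8.83 of the counts on the 3 ends in CTRL and 12.7% ± 2.39 in ASO libraries (SD, n = 5), the distal part 37.0% ± 7.35 and 62.0% ± 7.04, and the short end 23.6% ± 2.05 and 25.3% ± 4.73. In this order, 234 of 422 bp, 122 of 500 bp and 11 of 500 bp are not shared with another segment. These are therefore shares of counts and not of transcripts. The distal shift over 1570 genes given above runs the same way in the same libraries, and its part in the Ldb3 values was not tested. All other counted genes among the 7 have 1 counted segment each, so that no such ratio exists for them.

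**Figure D3:**
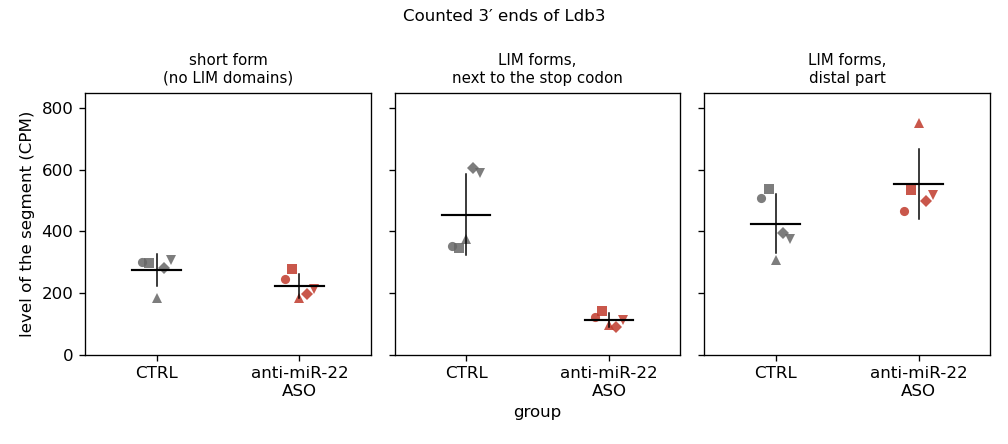
Level (CPM, axis from 0) of the 3 main counted 3′ ends of Ldb3 in each library, CTRL in gray and ASO in red, with the mean and ± 1 SD (n = 5). The stop-proximal part of the long forms is at 345 to 607 CPM in CTRL and 88.9 to 142 CPM in ASO libraries, while the short-form end and the distal part overlap between the groups.

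Levels can be set beside each other only per length, and were divided here by the length of the counted segment. In CTRL libraries the mean level ran from 23101 CPM per kb for Tcap and 13357 for Myoz1 through 1961 for Myom2 and 1297 for Tmod1 to 852 for Myoz3 and 527 for Ttn. In this order, the ranges of Myom2 and Tmod1, of Tmod1 and Myoz3, and of Myoz3 and Ttn overlapped between neighbors, while Tcap, Myoz1 and Myom2 were apart. In ASO libraries Tcap was at 27968 ± 11497 CPM per kb and Myoz1 at 24228 ± 5130 (SD, n = 5), with overlapping ranges. Myom2 followed at 4262 ± 1202, apart from Myoz1 and from Tmod1. Tmod1 at 1866 ± 262, Ttn at 1400 ± 266 and Myoz3 at 1225 ± 319 overlapped, and the short-form end of Ttn stood above Myoz3 on average in this group only. The Ttn values do not rank full-length titin, and the counted segments lie at unlike distances from the transcript end. On the 199 bp of Tmod1 that are not shared, its mean level was 3259 CPM per kb in CTRL and 4689 in ASO libraries, which changes its place in the order. Ldb3 was left out because its ends overlap.

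The libraries ranked alike across several of these genes. CTRL replicate 3 was the lowest CTRL library in 6 of the 7 (all but Ttn), and ASO replicate 4 was the lowest ASO library in 6 of the 7 (all but Tcap). ASO replicate 5 was the highest ASO library in 5 of the 7. CTRL replicate 3 and ASO replicate 4 were also the libraries of their group with the lowest summed level of muscle fiber markers, and ASO replicate 5 the one with the highest. These values rest on the same libraries and their relation was not tested.

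For each gene that rose, the 3 tested genes outside the list with the most similar pattern were found from log2(CPM + 1), centered per gene over the 10 libraries, among 7806 genes. The measure is the root mean square difference. For Ttn they were Cmya5, which encodes myospryn (0.17), Eloa (0.22) and Klhl31 (0.22). For Myom2 they were Gm57854, Pgam2, the muscle phosphoglycerate mutase, and the formin gene Fhod1 (0.18 to 0.19). For Myoz1 they were Ckm, the muscle creatine kinase (0.071), Hjv (0.099) and Kcnj11 (0.106). For Tmod1 they were Wdr55 (0.061), Trp53rka (0.087) and Ttc1 (0.095). These values are descriptions of likeness in 10 libraries.

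Of 30 other genes of the Z-disc, 19 were tested, 2 were higher and 5 were lower, beside 11.8% and 17.4% of all genes tested. Their median log2 fold change was 0.02, beside -0.03 over all genes tested. The 11 genes not tested did not pass the filter on low counts. Of these, Flnc, Myot, Csrp3, Palld and Cryab held 0 counts and Des held 35. They were named after their values were seen. The higher genes were Actn3 and Nrap. Actn3, the alpha-actinin of fast fibers, was at 2523 ± 932 CPM in CTRL and 8707 ± 3047 CPM in ASO (SD, n = 5), a log2 fold change of 1.79 (SE 0.31, adjusted p of 0.00147 in edgeR). It was the only alpha-actinin of muscle that could be measured, since Actn2 was not. Nrap, an anchoring protein of assembling myofibrils, was at 501 ± 158 and 1175 ± 387 CPM (log2 1.23, SE 0.27), and every ASO library was above every CTRL library.

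The lower Z-disc genes were Synm, Pdlim5, Xirp2, Fhl1 and Capza2. Synm, the intermediate filament protein synemin, fell from 285 ± 66.7 to 22.4 ± 11.2 CPM, a log2 fold change of -3.67 (SE 0.34, adjusted p of 0.000111 in edgeR). Pdlim5, which like Ldb3 encodes a PDZ and LIM protein, had a log2 fold change of -1.20 (SE 0.22), and Xirp2, an actin-binding Xin repeat protein, one of -1.24 (SE 0.28). In Synm, Pdlim5 and Xirp2 every ASO library was below every CTRL library. Fhl1, a LIM-only protein, was at -1.86 (SE 0.54) and Capza2, a subunit of the protein that caps the actin filament at the Z-disc, at -0.68 (SE 0.19), and both overlapped between the groups. Several of these genes have more than 1 counted segment, as Ldb3 does. When only the most distal counted segment of each gene was used, Synm alone of the 5 stayed past the threshold (-3.79), Pdlim5, Fhl1 and Capza2 did not (-0.805, -1.36 and 0.15), and Xirp2 gave no value. In that fit the log2 fold changes of all genes moved by a median of -0.22 from the main fit.

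Of 18 genes of the M-band or bound to titin, 13 were tested, 3 were higher and 3 were lower, beside the same 11.8% and 17.4% of all genes tested. Their median log2 fold change was -0.14, beside -0.03 over all genes tested. The higher genes were Ckm, Obsl1 and Smyd2. Ckm, whose enzyme binds the M-band, was at 19251 ± 4623 CPM in CTRL and 36672 ± 8563 CPM in ASO (SD, n = 5), a log2 fold change of 0.93 (SE 0.23, adjusted p of 0.0107 in edgeR). On its most distal counted segment alone the value was -0.01. Obsl1, a cytoskeletal adaptor, rose by 0.76 (SE 0.17) and the methyltransferase gene Smyd2 by 0.70 (SE 0.21). With the most distal segment, Obsl1 was the 1 of these 3 past the threshold (1.13), and Smyd2 was at 0.47. In that fit the log2 fold changes of all genes moved by a median of -0.22 from the main fit. The part of this move in the lost calls was not tested.

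The lower genes were Nbr1, Smyd1 and Trim63. Nbr1, an autophagy receptor that binds the titin kinase region, had 23.0 ± 10.9 CPM in CTRL and 1.75 ± 1.52 CPM in ASO (SD, n = 5), a log2 fold change of -3.70 (SE 0.49, adjusted p of 0.000338 in edgeR) on 236 counts in all. Smyd1, a myosin chaperone and methyltransferase, fell by 1.75 (SE 0.24), and in Nbr1 and Smyd1 every ASO library was below every CTRL library. Trim63, the ubiquitin ligase MuRF1 that binds titin at the M-band, was at 41.0 ± 7.51 and 24.0 ± 7.64 CPM, a log2 fold change of -0.77 (SE 0.22, adjusted p of 0.0192 in edgeR) with overlap between the groups. With only the most distal counted segment of each gene, Nbr1 was at -3.95 and Trim63 at -0.99, and Smyd1 gave no value. Nbr1 and Trim63 thus moved from the main fit by about the median move of all genes (-0.22). The same counts under another scaling would move in this way, so these values are no separate test of the lower levels.

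Of 16 genes that set the length or assembly of the thin filament, 12 were tested and none passed the threshold in edgeR, with a median log2 fold change of 0.11 beside -0.03 over all genes tested. At an unadjusted p under 0.05 there were 3 higher and 0 lower genes, and DESeq2 called 2 higher. The 3 were Tpm1, Acta1 and Actc1. Tpm1 came nearest the threshold (log2 0.90, SE 0.33, adjusted p of 0.055 in edgeR). Actc1 had the largest change (log2 1.46, SE 0.64, adjusted p of 0.105 in edgeR), and both overlapped between the groups. Acta1, the skeletal alpha-actin, also came near the threshold, with 39783 ± 9046 CPM in CTRL and 59136 ± 5609 CPM in ASO (SD, n = 5) and no overlap between the groups (log2 0.57, SE 0.21, adjusted p of 0.0585 in edgeR). The leiomodin gene Lmod3 (0.02, SE 0.24) and the nemaline myopathy gene Klhl40 (0.04, SE 0.15), which stabilize thin filaments, and the capping paralog Tmod3 (0.19, SE 0.21) lay near 0. Tmod4, of the same family as Tmod3, held 0 counts and was not compared. These genes were named after their values were seen.

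**Figure D4:**
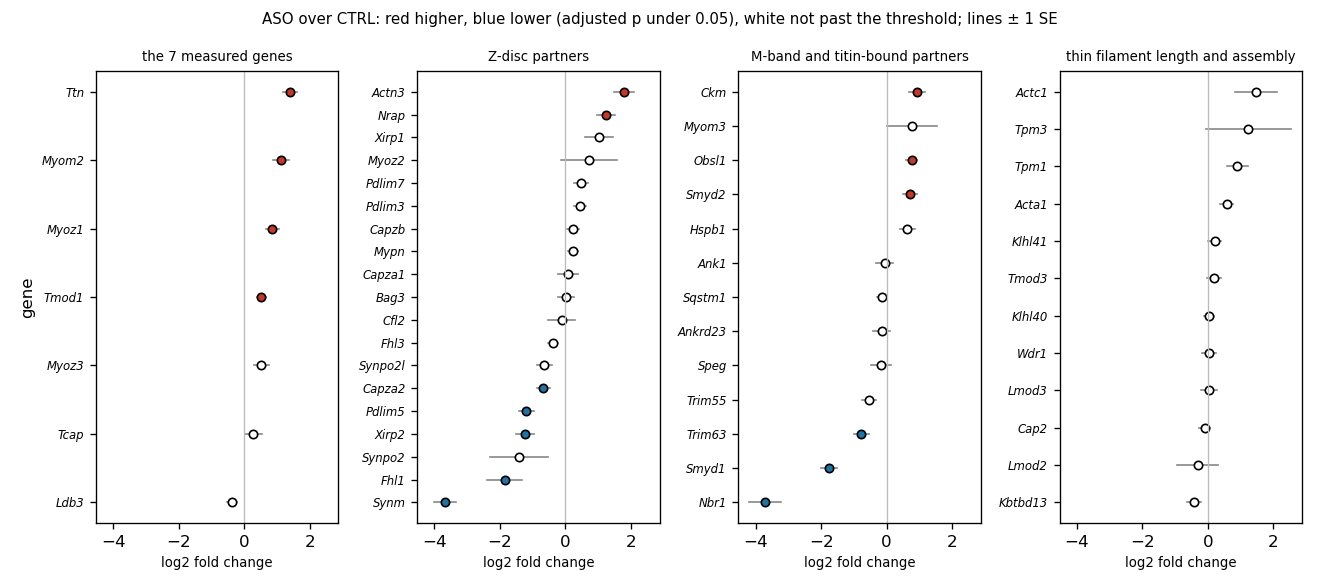
Log2 fold change (ASO over CTRL, horizontal axis, ± 1 SE) of every tested gene of the 4 lists, red for higher, blue for lower and white for not past the adjusted p of 0.05. The 7 measured genes described first have no blue point, the Z-disc list has 2 red and 5 blue points, the M-band list 3 red and 3 blue, and the thin filament list none.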

How the data were processed

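Stranded mRNA libraries of GAS from 5 ASO and 5 CTRL mice were sequenced as read pairs. Per the study's methods, the authors used fastp for trimming, STAR for alignment (GRCm39) and featureCounts for counting read pairs. Only the terminal 500 bp of each 3′UTR in Gencode M25 were kept, and no strand option is stated. They deposited unnormalized counts per transcript segment, with 4 further per-sample columns not used here. Of 52423 segments, 52361 were found in GENCODE M39, and the 62 others hold 0.0197% of the counts. Segments were summed per gene identifier, and the symbol was attached afterwards. A pair that covers 2 segments equally is not counted by this tool, which lowers genes whose ends are annotated more than once.

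The test of each gene was that of edgeR 4.0.16, run in R 4.3.3 (TMM, filterByExpr by group, quasi-likelihood test, Benjamini-Hochberg adjustment over 7813 genes, threshold 0.05), after a check on simulated data. CPM are edgeR values for TMM-scaled libraries. Single values were tested by two-sided exact permutation of log2(CPM + 1). Alternatives were DESeq2 1.42.0, limma-voom in limma 3.58.1, 3 other scalings, 2 other filters, a block on the replicate number, leaving out the 20 genes of highest mean, the most distal counted segment, the segment with most counts, and each library left out. A fit of single segments and libraries drawn down to 1606491 counts were chosen after seeing the data.

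The 10 genes, the partner lists and the markers were chosen with earlier results of these data known, and 1 gene of the M-band list is not reported here. Named genes are all 10, up to 8 past the threshold in each partner list by adjusted p, and the 3 most similar in pattern to each gene that rose, and any other is said to be named after its values were seen. Groups came from the sample titles. Coordinates are 1-based on GRCm39. Python 3.11.15 with scipy 1.17.1 did the remaining steps.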

Additional observations from a re-analysis of the deposited data

Results flagged for a closer look

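Of 14 groups of 5 libraries (7 genes in 2 groups), 1 held a library far from the others: CTRL replicate 3 had 866.0 CPM of Ldb3, lower than the other CTRL libraries by a gap of 0.725 of the group's whole range, where 0.71 is Dixon's 95% critical value for 5 samples. Chance gives such a library in about 1 of 20 groups.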

How the results depend on the processing

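Ttn, Myom2 and Myoz1 kept their direction and their side of the threshold under all alternatives that gave a value, with log2 fold changes over the scalings, filters, tools and segment choices of 1.19 to 1.49, 0.897 to 1.2 and 0.635 to 0.944. Each of these genes, like Tmod1, has 1 counted segment. The segment choices therefore held the same counts for them, with another scaling and another set of genes, and could not test their segments. The lowest value of each range came from the most distal counted segment. The fit without the 20 genes of highest mean count holds no value for Myoz1 and Tcap. Tmod1 lost its call with total-count scaling (0.338, adjusted p 0.0511), with the most distal counted segment (0.294, 0.188) and with the segment of most counts (0.402, 0.0605), where the log2 fold changes of all genes moved by a median of -0.18, -0.22 and -0.12. The fall of Ldb3 passed with total-count scaling (-0.553, 0.00742) and with at least 10 counts in every library (-0.402, 0.0444), so that 1 of the 10 genes was lower there, and turned to 0.268 (0.287) on its segment with most counts, the distal one.

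Total-count scaling gave 528 higher and 1819 lower genes over the whole table (22.5% of calls higher, against 40.3%), upper quartile scaling 1262 and 1206 (51.1%), and the most distal segment 388 and 602. Among the Z-disc genes, DESeq2 gave 4 higher, the fit without the 20 top genes 1 higher and the most distal segment 1 lower. Among the M-band and titin-bound genes, 1 was higher with the most distal segment. Of the thin filament genes, 2 were higher with RLE scaling, upper quartile scaling and DESeq2, 1 was higher without a filter, with limma-voom, without the 20 top genes and at equal depth, and 1 was lower with total counts. The cause of these differences was not tested.

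With each library left out in turn, 692 to 1021 genes were higher and 1127 to 1369 lower, and 4 to 5 of the 10 genes were higher and 0 to 1 lower. Log2 fold changes ran from 1.29 to 1.58 for Ttn, 0.991 to 1.29 for Myom2, 0.745 to 0.993 for Myoz1, 0.423 to 0.662 for Myoz3, -0.464 to -0.307 for Ldb3, 0.0265 to 0.431 for Tcap and 0.465 to 0.63 for Tmod1. Higher genes numbered 2 to 4 in the Z-disc list (4 without ASO replicate 4), 2 to 4 in the M-band list and 0 to 2 in the thin filament list (1 without CTRL replicate 2, 2 without ASO replicate 4).

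The replicate numbers were not treated as pairs in the main fit. Deviations of same-numbered libraries correlated at -0.43, 0.06, 0.05, 0.06 and 0.16. These values were not tested and cannot show whether the mice were paired in another way. In the fit with a replicate block, 662 genes were higher and 1172 lower, 4 of the 10 genes were higher, and no call among them changed (Tmod1 at an adjusted p of 0.0487 in edgeR). Neb, Actn2 and Myom1 are at or below the floor of 3 counts in every library and were not compared.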
